A study of Homo sapiens with 38 samples.

Results

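The respiratory chain genes were taken from the count table by symbol: nuclear subunit genes of complexes I to IV (NDUF, SDH, UQCR and COX names) and the protein genes of mitochondrial DNA (MT-ND, MT-CO, MT-CYB and MT-ATP). The rule matched 118 rows of the 57133 in the table, and 108 of these held at least 1 count. They comprised 36 nuclear genes of complex I, 4 of complex II, 8 of complex III, 17 placed with complex IV, 13 mitochondrially encoded genes and 30 rows of processed copies. NDUFA4, now known as a subunit of cytochrome c oxidase, and COX7A2L, an assembly factor that joins complexes III and IV, were counted with complex IV. Of these, 79 passed the filter on low counts: 64 of the 65 nuclear genes, all 13 mitochondrially encoded genes and 2 copies. The symbol patterns used no measured value.

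RNA came from Shef6, a human embryonic stem cell line, and was sequenced by QuantSeq, which reads the 3′ end of polyadenylated transcripts. All libraries derive from cells first adapted to feeder-free growth on a serum coating, those on Geltrex included. Naive cells were in PXGL, that is N2B27 with the inhibitors PD0325901 (MEK), XAV939 (tankyrase) and Gö6983 (PKC) plus human LIF, at low oxygen, on the serum coating or on Geltrex. They were then moved on Geltrex into N2B27, E8 or mTeSR, into N2B27 with XAV939 alone (XAV), or with XAV939, Activin A and FGF2 together (FAX). The 30 libraries of experiment Ex1 covered naive cells on each coating and 3 media, with days 2, 3, 4, 6 and 8 for N2B27 and E8 and days 4, 6 and 8 for mTeSR. The 8 of experiment Ex2 were naive on Geltrex or taken at day 4 from N2B27, XAV or FAX. Each of the 19 groups had 2 libraries, so naive cells had 6 in all and N2B27 at day 4 had 4. The Ex2 naive libraries are given as day 0 in one label and carry a day 4 library name in another, and were used as naive. Library names of all naive samples read PXGLY, with GelFBS for those on serum, and the labels do not explain the Y. The study's methods add the ROCK inhibitor Y-27632 to naive medium after passaging and to N2B27 at seeding. All libraries derive from 1 cell line and the 2 of a group are parallel samples, so p-values measure only the spread between these samples, which may be technical.

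The respiratory chain passes electrons from NADH, through complex I, or from succinate, through complex II, to ubiquinone, then through complex III and cytochrome c to complex IV, which reduces oxygen. Complexes I, III and IV pump protons, and ATP synthase uses the gradient. Complex II is encoded wholly in the nucleus, whereas the other complexes combine nuclear subunits with a few that mitochondrial DNA encodes, transcribed inside the organelle as long polycistronic RNAs that are then cut into messengers. Most of these carry a single gene, but MT-ATP8 with MT-ATP6 and MT-ND4L with MT-ND4 are known to share a messenger. Nuclear respiratory factor 1 (NRF1) and ETS family factors are known to bind the promoters of many nuclear subunit genes. Naive human pluripotent cells are known for higher oxidative respiration than primed ones, a state reached after capacitation.

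Promoters of 4 nuclear genes are shown because these genes are among those described below, 1 gene per complex. Each stretch is the 110 bases that end just before the annotated gene start, 5′ to 3′ on the gene's strand, from RefSeq on GRCh38.p14. Capitals mark matches to GCGCA, any base, GCGC (NRF1 type) or CCGGAAG (ETS type) on either strand.
NDUFA12 (chr12:95003749-95003858, minus strand): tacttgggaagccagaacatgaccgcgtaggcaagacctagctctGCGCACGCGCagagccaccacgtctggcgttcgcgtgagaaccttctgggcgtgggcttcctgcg
SDHD (chr11:112086714-112086823, plus strand): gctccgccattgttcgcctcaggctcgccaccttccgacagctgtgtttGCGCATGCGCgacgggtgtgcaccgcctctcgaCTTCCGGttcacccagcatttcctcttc
UQCR11 (chr19:1605474-1605583, minus strand): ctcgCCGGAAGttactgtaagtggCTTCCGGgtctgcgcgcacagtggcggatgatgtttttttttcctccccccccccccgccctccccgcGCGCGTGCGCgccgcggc
COX5B (chr2:97645952-97646061, plus strand): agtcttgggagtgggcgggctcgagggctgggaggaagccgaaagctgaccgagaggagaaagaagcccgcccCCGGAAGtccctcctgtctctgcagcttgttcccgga
The first base of the NRF1 type match lay 65 bases before the gene start in NDUFA12, 61 in SDHD and 18 in UQCR11, and that of the ETS type match in COX5B lay 37 before it. Of the 65 nuclear genes, 55 had a RefSeq promoter in the reference used. In the 250 bases before the RefSeq start, 11 of these (20%) held the NRF1 type and 14 (25.5%) the ETS type, against 5.07% and 8.52% of all 35116 promoters. Another motif, AAGATGGC (YY1 type), was in 0 of the 55 and in 1.36% of all promoters. Any of the 3 occurred in 10 of 31 complex I promoters, 3 of 3 of complex II, 5 of 7 of complex III and 5 of 14 of complex IV. Over all promoters the share was 13.9%. These are matches of letters in a window and were not tested for binding.

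A second sequence bears on how the mitochondrial counts can be read. Reads of this assay lie at the 3′ end, and the last 60 bases of MT-ND1, a core subunit of complex I, stand unchanged in the nuclear copy MTND1P23 on chromosome 1.
MT-ND1 (chrM:4203-4262, plus strand): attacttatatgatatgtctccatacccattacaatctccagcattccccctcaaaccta
MTND1P23 (chr1:629373-629432, plus strand): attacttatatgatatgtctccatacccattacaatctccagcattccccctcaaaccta
The copy spans chr1:629062-629433, where 355 of 372 bases matched the mitochondrial genome, and its final 158 bases up to the end of MT-ND1 were identical. In each library 49.4% to 60.7% of the counts of this pair were listed under the copy, so that the level of MT-ND1 alone is uncertain. Over all libraries, nuclear copies took 19.25% of the joint counts for MT-ND6, 15.7% for MT-ATP6, 14.28% for MT-CO1 and 11.11% for MT-ND2, and at most 7.55% for each of the other mitochondrially encoded genes. MTND2P28 matched MT-ND2 at 98.4% of its bases with an identical end of 13 bases, and MTATP6P1 matched MT-ATP6 at 98.5% with an identical end of 39. MT-ATP8 and MT-ATP6 share 46 bases on the same strand, and MT-ND4L and MT-ND4 share 7. Since each of these pairs shares a messenger, whose 3′ end lies in MT-ATP6 or MT-ND4, counts listed under MT-ATP8 and MT-ND4L are not levels of a separate transcript. How reads divide between the genes of a pair was not measured.

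Library totals were 3038046 to 5612354 counts (median 4427277), with 21018 to 25447 genes detected. The unit of level here is CPM, a TMM-scaled share of the library, and 3 counts corresponded to 0.520 to 1.06 CPM, a limit that covers counting error only. With 3′ tags, CPM counts transcripts' ends and is not divided by length. The mitochondrially encoded genes took 1.16% to 2.22% of all counts and the nuclear genes 0.868% to 1.503%. In naive cells the group means ran from 28.4 CPM (NDUFB11) to 588 CPM (NDUFS5) in complex I, from 40.3 (SDHD) to 313.3 (SDHC) in complex II, from 55.1 (UQCRC1) to 1050 (UQCRH) in complex III, and up to 980.5 (COX6C) in complex IV. Among the mitochondrially encoded genes they ran from 96.6 CPM (MT-ND6, the only protein gene on the other strand) to 2865 (MT-ND4). Between the 2 E8 day 8 libraries the summed nuclear levels differed more than within any other group of 2. They were 12184 and 9628 CPM, and replicate 1 exceeded replicate 2 by 0.53 on the log2 scale in complex IV. Over single genes, the mismatch within this pair was 10.89 as chi-squared per degree of freedom. It was similar in N2B27 at days 2 and 3 (10.27 and 11.04) and in E8 at day 3 (13.5), against at most 4.918 in the other groups. Naive markers, summed over 6 genes, were at 1110 to 1466 CPM in naive libraries and at 338.9 to 452.4 CPM at day 8 in N2B27, E8 and mTeSR. The 4 capacitation markers summed to 18.8 to 24.1 CPM in naive libraries and to 419.6 to 534.9 CPM at day 8. In bulk RNA, fewer cells of a type and less RNA per cell cannot be told apart.

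The summed level of the nuclear genes was lower in most libraries after naive cells left PXGL, while the mitochondrially encoded sum was first higher and by day 8 within or below the naive range. The naive nuclear sum ranged from 10642 to 15518 CPM over 6 libraries (median 13730), lowest in the 2 serum libraries (10642 and 11958) and highest in Ex2 (15518 and 15144). At day 8 it was 8537 and 9099 CPM in N2B27, 65.5% of the naive mean, and 9184 and 9857 in mTeSR, 70.8%. The 2 E8 libraries averaged 81.1% of the naive mean, with replicate 1 inside the naive range. The N2B27 and mTeSR libraries of day 8 lay below every naive library.

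The mitochondrially encoded sum had a naive range of 15620 to 21048 CPM (median 17843). At day 2 it was 21848 and 21907 CPM in N2B27, 122.8% of the naive mean, and 23981 and 24686 in E8, 136.5%. All 4 day 2 libraries stood above the naive range in these TMM-scaled units. As unscaled shares of all counts, the day 2 libraries had 2.198% and 2.081% in N2B27 and 2.156% and 2.222% in E8. The highest naive share, in serum replicate 1, was 2.166%, so on that scale the day 2 libraries were not all above it. By day 8 it was 14187 and 16120 CPM in N2B27, 15611 and 19421 in E8, and 11460 and 14665 in mTeSR, which is 85.02%, 98.28% and 73.3% of the naive mean. Both mTeSR libraries were below all naive ones, and the N2B27 and E8 pairs overlapped the naive range. The ratio of the 2 sums was 1.03 to 1.98 in naive libraries (median 1.21), 2.20 to 2.34 in the 4 day 2 libraries, and its day 8 mean was 1.72 for N2B27, 1.61 for E8 and 1.37 for mTeSR. No test was made on these sums.

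**Figure D1:**
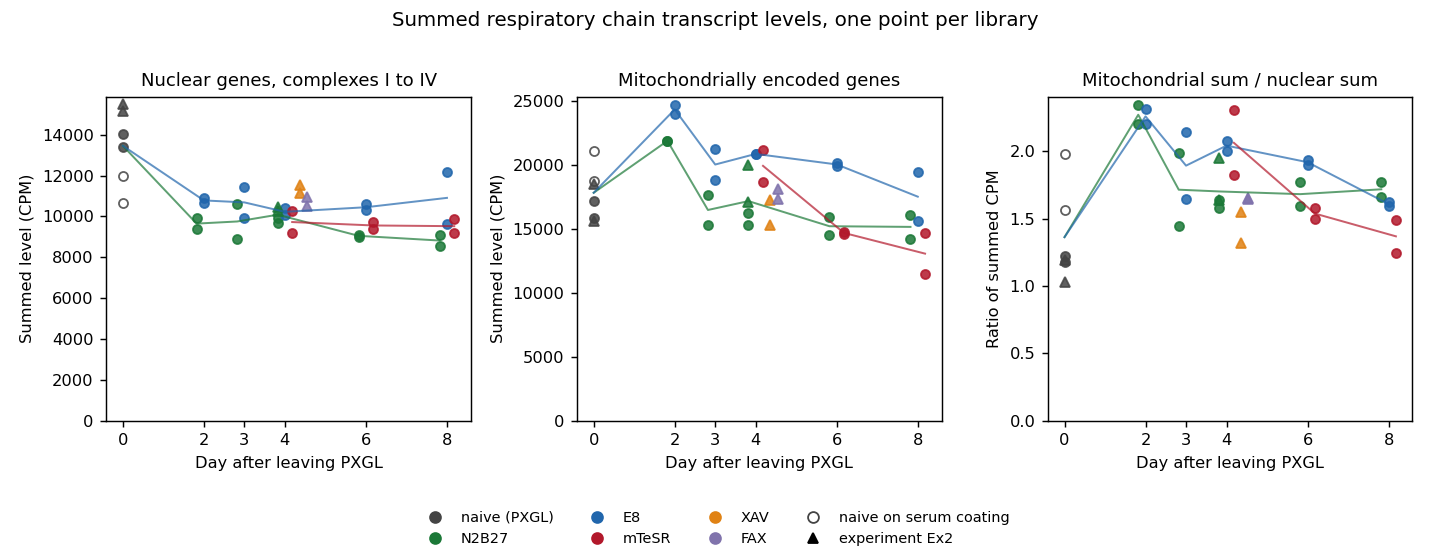
Summed levels in CPM (linear axes from 0) of the nuclear genes, of the mitochondrially encoded genes, and their ratio, against day after leaving PXGL. Points are single libraries, lines join group means, open circles are naive cells on serum coating and triangles are Ex2. The nuclear sum is below the naive median of 13730 CPM in all libraries after day 0, while the mitochondrial sum peaks at day 2 at 21848 to 24686 CPM.

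Gene by gene, a call was an adjusted p under 0.05 in edgeR's quasi-likelihood test over 16674 genes. The 15 comparisons against naive cells share the 6 naive libraries, so each is described on its own. In N2B27, 35 of 64 nuclear genes were lower at day 2, where 16.4% of all genes were lower. On days 3, 4, 6 and 8 there were 37 (15.3% of all genes), 40 (20%), 51 (19.9%) and 53 (20.4%). The count fell to 14 without N2B27 day 2 replicate 2 and to 10 without day 3 replicate 1. The numbers of higher nuclear genes at these days were 4, 2, 2, 3 and 1, beside 18.9%, 17.9%, 22.5%, 24.9% and 24.7% of all genes. The nuclear median log2 change was -0.40 at day 2 and -0.59 at day 8, where the medians over all genes were 0.02 and -0.03.

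In E8 the lower nuclear genes on days 2, 3, 4, 6 and 8 numbered 28 (23% of all genes), 28 (15.8%), 36 (19.1%), 35 (19.2%) and 34 (23.1%). These counts moved with single libraries. Leaving out replicate 1 gave 18 at day 2, 8 at day 3 and 19 at day 4, and leaving out replicate 2 gave 16 at day 2 and 19 at day 8. Higher nuclear genes numbered 3, 2, 2, 2 and 4 at the same days, beside 24.2%, 19.5%, 21.4%, 23.1% and 26.8% of all genes. The median of the nuclear genes was -0.27 at day 2 and -0.40 at day 8, and that of all genes at day 8 was 0.00.

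In mTeSR, days 4, 6 and 8 had 38 (17.7% of all genes), 48 (18.8%) and 46 (20.7%) lower nuclear genes, with 2 higher at each day (20.3%, 23.3% and 24.7% of all genes). The day 6 count was 30 without replicate 1. The nuclear median was -0.63 at day 8 against -0.02 over all genes. Most of these changes were modest. Only 7 nuclear genes in N2B27, 4 in E8 and 12 in mTeSR were called and lower by more than 1 on the log2 scale at day 8, where 7.03%, 9.24% and 8.2% of all genes were.

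**Figure D2:**
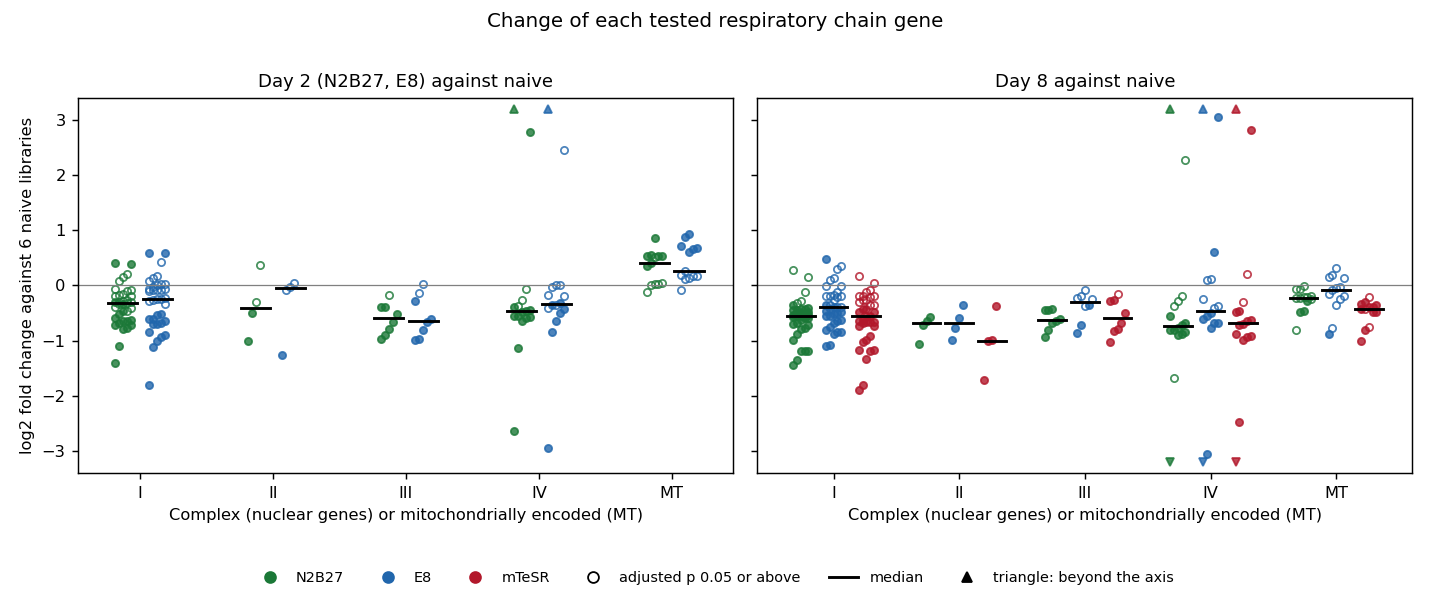
Log2 fold change against the 6 naive libraries (vertical axis) of each tested gene, by complex or mitochondrially encoded (MT), at day 2 and day 8. Points are genes, filled where called, bars are medians and triangles lie beyond the axis. At day 8 the medians of complexes I to IV lie between -1.001 and -0.30, and at day 2 those of the MT genes lie at 0.40 in N2B27 and 0.25 in E8.

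Complex I, the NADH dehydrogenase, had 31 of 36 nuclear genes lower at day 8 in N2B27 (20.4% of all genes), 19 in E8 (23.1%) and 23 in mTeSR (20.7%). Medians were -0.56, -0.40 and -0.56. Of the 7 core genes, which carry the flavin and the iron-sulfur clusters, 6, 4 and 5 were lower. NDUFA12 (chr12:94895297-95003748), an accessory subunit of the NADH-oxidising arm, had the largest fall among the complex I genes in N2B27 and in mTeSR, and NDUFS7 had it in E8. Its level in naive libraries was 106.9 to 144.4 CPM (median 128.0). At day 8 it was 48.7 and 46.4 CPM in N2B27, 77.4 and 44.0 in E8, and 36.9 and 32.7 in mTeSR. Every day 8 library was below every naive one. Nuclear genes named by size of change had to be called without overlap between the sides compared. In such genes the lack of overlap is therefore no separate result. On the log2 scale the N2B27 libraries of NDUFA12 fell by 1.44 (SE 0.197, edgeR adjusted p = 2.164e-07), the E8 libraries by 1.08 (SE 0.191, 1.505e-05) and the mTeSR libraries by 1.89 (SE 0.21, 3.46e-09).

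NDUFC2 (chr11:78068297-78079862), an accessory subunit of the membrane arm, was more even between naive libraries. Its naive range was 232.7 to 269.5 CPM (median 250.9). At day 2 in N2B27 it was 209.9 and 227.3 CPM, and this difference was not called (log2 -0.20, edgeR adjusted p = 0.1497). By day 8 the values were 127.8 and 123.2 CPM in N2B27, 130.6 and 147.9 in E8, and 125.7 and 119.8 in mTeSR, all below the naive range. The log2 changes were -0.999 (adjusted p = 5.24e-09), -0.85 (9.779e-08) and -1.03 (3.604e-09) by edgeR's test.

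NDUFS7 (chr19:1383527-1395589), a core subunit that holds the last iron-sulfur cluster before ubiquinone, ranged from 29.6 to 57.0 CPM in naive libraries (median 40.8). It was 14.1 and 19.7 CPM at day 8 in N2B27, 20.8 and 19.8 in E8, and 16.6 and 17.9 in mTeSR, below every naive library. NDUFS7 fell by 1.35, 1.09 and 1.33 on the log2 scale (edgeR adjusted p = 7.085e-06, 9.708e-05 and 1.618e-05). NDUFV1, the flavin-bearing core subunit at the NADH site, fell by 1.19 in N2B27 and by 1.18 in mTeSR (adjusted p = 2.62e-06 and 3.772e-06, edgeR). In E8 its 2 libraries stood far apart at 135.3 and 60.3 CPM, against 108.1 to 167.3 in naive cells. The log2 change of NDUFV1 in E8 was -0.51 (edgeR adjusted p = 0.01566) and -0.05 (0.834) without replicate 2. NDUFS4, another subunit of the NADH-oxidising arm, was called higher in E8 at day 8 (log2 0.48, adjusted p = 0.01321, edgeR), a call lost without replicate 1 (0.39, adjusted p = 0.167).

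**Figure D3:**
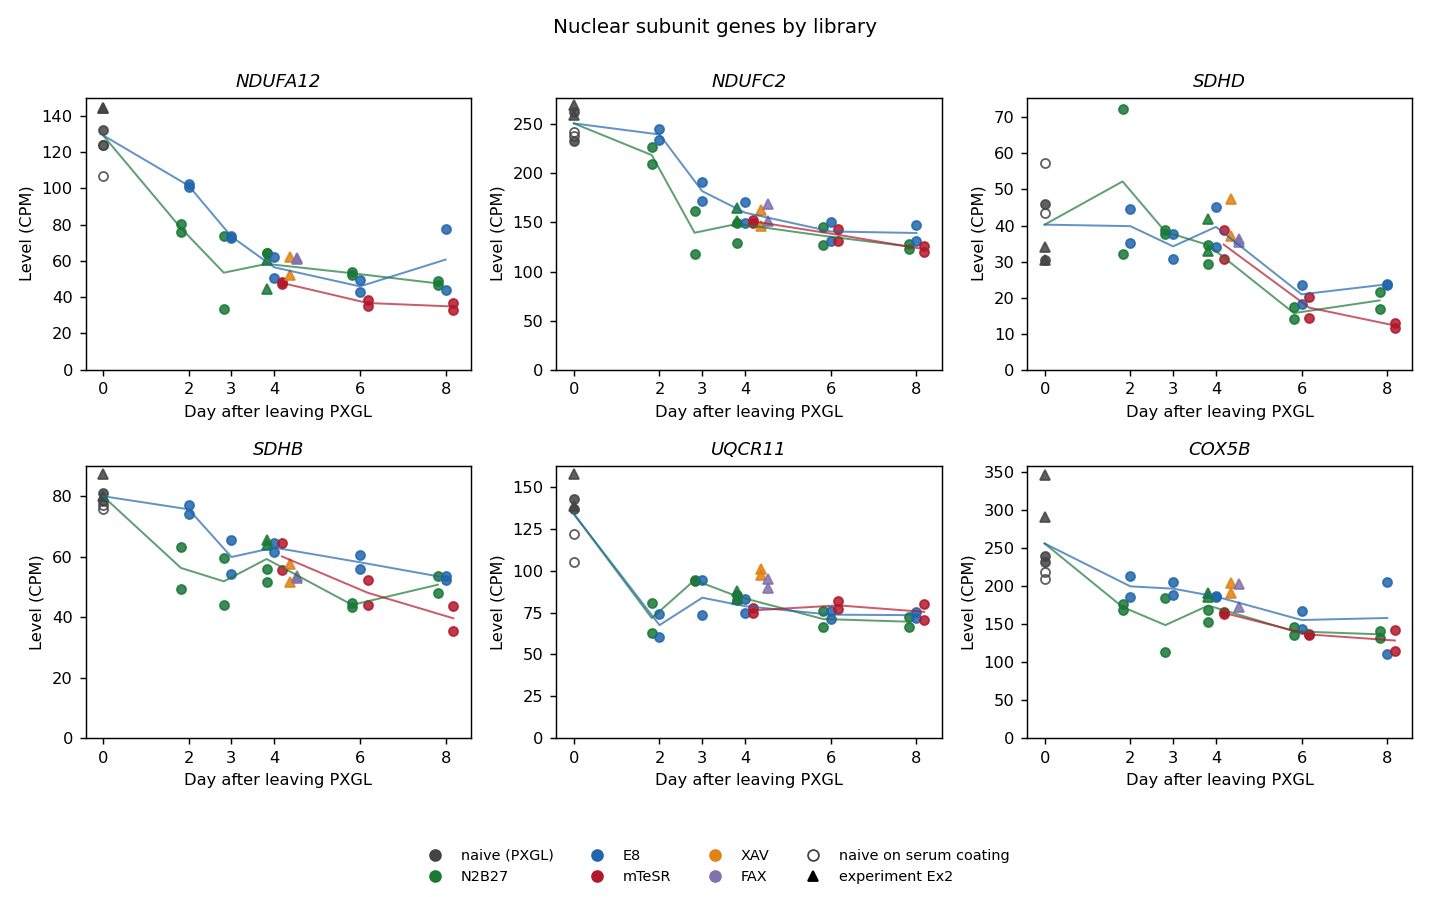
Levels in CPM (linear axes from 0) of 6 nuclear genes in each library against day after leaving PXGL, with lines through group means. NDUFA12, NDUFC2, SDHB and UQCR11 lie below their naive ranges in all 6 Ex1 libraries of day 8, while the E8 day 8 points of COX5B are at 205.9 and 110.2 CPM.

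Complex II, succinate dehydrogenase, links the chain with the citric acid cycle. All 4 of its genes were called lower at day 8 in N2B27 (20.4% of all genes), in E8 (23.1%) and in mTeSR (20.7%). Their medians were -0.69, -0.68 and -1.001. SDHB (chr1:17018664-17054032), the iron-sulfur subunit, varied little in naive libraries, from 75.7 to 87.4 CPM (median 79.4). The day 8 libraries had 48.0 and 53.5 CPM in N2B27, 52.5 and 53.7 in E8, and 43.7 and 35.5 in mTeSR, with no overlap with naive cells. SDHB fell by 0.66, 0.59 and 1.01 on the log2 scale (edgeR adjusted p = 7.089e-05, 0.0002179 and 1.535e-07).

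SDHC (chr1:161314381-161363206), a membrane anchor of complex II, was already lower at day 2, at 178.9 and 131.9 CPM in N2B27 and 129.8 and 130.9 in E8 against 226.4 to 383.5 in naive libraries (median 306.2). Its log2 changes at day 2 were -1.01 and -1.262 (edgeR adjusted p = 2.047e-05 and 6.015e-07). At day 8 they were -0.72, -0.99 and -0.99 in N2B27, E8 and mTeSR (adjusted p = 0.0005939, 9.624e-06 and 1.264e-05, edgeR).
SDHD (chr11:112086824-112120016), the other anchor, had 30.3 to 57.3 CPM in naive libraries (median 38.7) and 72.4 and 32.0 at day 2 in N2B27, 1 library above the naive range and 1 near its lower end. Its day 8 values were 16.7 and 21.7 CPM in N2B27, 23.6 and 23.8 in E8, and 13.03 and 11.47 in mTeSR, all below the naive libraries. SDHD fell by 1.07 in N2B27 and by 1.72 in mTeSR (edgeR adjusted p = 0.0005623 and 4.357e-06). In E8 the log2 change of -0.78 (adjusted p = 0.007822, edgeR) lost its call without replicate 1 or 2 (0.0688 and 0.0516). SDHA, the flavoprotein, changed least, by -0.58, -0.36 and -0.38 on the log2 scale (edgeR adjusted p = 0.0006271, 0.02295 and 0.02144). The E8 call of SDHA was lost without replicate 1 (0.183), replicate 2 (0.0583) or naive Geltrex Ex2 replicate 2 (0.0594), and the mTeSR call without replicate 1 (0.51).

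Complex III, the cytochrome bc1 complex, had 8 of 8 genes lower at day 8 in N2B27, 3 in E8 and 7 in mTeSR, where 20.4%, 23.1% and 20.7% of all genes were. UQCR11 (chr19:1597169-1605473), a small accessory subunit, had its lower level by day 2. It was 80.8 and 62.7 CPM at day 2 in N2B27 against 105.4 to 157.8 in naive libraries (median 137.9), and at day 8 72.5 and 66.7 in N2B27, 75.1 and 71.8 in E8, and 80.1 and 70.8 in mTeSR. All were below the naive range. Its log2 changes were -0.90 at day 2 in N2B27 and -0.94, -0.86 and -0.83 at day 8 (edgeR adjusted p = 1.326e-06, 1.92e-07, 7.931e-07 and 2.464e-06). UQCRQ, another small subunit, fell by 0.69, 0.72 and 1.03 at day 8 (adjusted p = 0.00214, 0.001305 and 2.979e-05, edgeR).

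UQCRH (chr1:46303698-46316776), the hinge protein near cytochrome c1 and the highest nuclear gene of the complex in naive cells, differed between media. It was 669.5 and 708.4 CPM at day 8 in N2B27, 1136 and 847.9 in E8 and 879.0 and 856.9 in mTeSR. The naive range was 939.4 to 1237 (median 1008). Only the E8 library at 1136 CPM lay within that range, and the others lay below it. In N2B27 the level of UQCRH fell by 0.61 (log2, edgeR adjusted p = 1.308e-05), and it changed by -0.08 in E8 (0.5358) and by -0.27 in mTeSR (0.02942). The mTeSR call was lost without mTeSR day 8 replicate 1 or 2 (0.107 and 0.169) or naive Geltrex Ex2 replicate 1 or 2 (0.0619 and 0.0617).

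Complex IV, cytochrome c oxidase, had 10 of 16 tested genes lower at day 8 in N2B27 (20.4% of all genes), 8 in E8 (23.1%) and 12 in mTeSR (20.7%). The medians were -0.74, -0.46 and -0.68. COX5B (chr2:97646062-97648383), the zinc-binding subunit, had 209.0 to 346.3 CPM in naive libraries (median 235.5). On day 8 its level was 132.0 and 141.1 CPM in N2B27, 205.9 and 110.2 in E8, and 142.3 and 114.5 in mTeSR, all below the naive range, with E8 replicate 1 just under it. COX5B fell by 0.90, 0.69 and 0.99 on the log2 scale (edgeR adjusted p = 0.0001096, 0.001743 and 3.92e-05), and the E8 call was lost without replicate 2 (log2 -0.31, 0.22). COX4I1, the ubiquitous regulatory subunit, changed by -0.85, -0.51 and -0.72 (adjusted p = 8.37e-06, 0.00293 and 9.95e-05, edgeR), and its E8 call was likewise lost without replicate 2 (-0.26, 0.223). COX6A1, the general isoform of subunit VIa, was more even, at 168.2 and 167.4 CPM in E8 against 236.7 to 351.1 in naive libraries (median 281.7), with log2 changes of -0.77, -0.77 and -0.66 (edgeR adjusted p = 1.401e-06, 1.171e-06 and 1.916e-05).

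Several subunits of complex IV come as a general isoform and 1 of restricted expression. The restricted isoforms were rare throughout. COX7A1 (chr19:36150922-36152449), the heart and muscle isoform of subunit VIIa, gave 11 counts over the 6 naive libraries, where it was at 0 to 1.12 CPM (median 0.248). At day 8 it gave 58 counts in N2B27 (5.29 and 6.14 CPM), 36 in E8 (4.12 and 3.30) and 23 in mTeSR (3.26 and 3.08), with no overlap. The pooled ratio was 13.4 in N2B27 (95% counting interval 6.97 to 28.4), 8.75 in E8 (4.36 to 19.1) and 7.39 in mTeSR (3.46 to 16.8), and COX7A1 was called in each (edgeR adjusted p = 2.957e-08, 4.075e-06 and 6.762e-05). It was present by day 2, at 7.60 and 4.27 CPM in N2B27. COX7A2 (chr6:75237675-75250323), the general isoform, was far more abundant, at 309.2 to 502.3 CPM in naive libraries (median 367.7), and changed by -0.88 in N2B27, -0.41 in E8 and -0.94 in mTeSR (adjusted p = 0.0001393, 0.05277 and 7.025e-05, edgeR). Its 2 E8 libraries were at 390.4 and 188.8 CPM, and the E8 difference of COX7A2 was called without E8 day 8 replicate 1 (0.000103), naive serum replicate 1 (0.0256) or naive serum replicate 2 (0.0372).

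COX7B2 (chr4:46734827-46909245), a paralogue of COX7B known mainly from testis, moved in the other direction. It gave 132 counts over the naive libraries, at 3.07 to 7.30 CPM (median 4.23), and was still at 5.002 and 4.509 CPM at day 2 and 4.51 and 2.15 at day 4 in Ex1 N2B27. At day 8 it gave 2 counts in N2B27, 3 in E8 and 0 in mTeSR. The ratio to naive cells was 0.0386 in N2B27 (95% counting interval 0.00462 to 0.142) and 0.0608 in E8 (0.0124 to 0.182), and the mTeSR level was at least 12.4-fold lower, taking 3 counts over both libraries as the limit. COX7B2 was called lower at day 8 in N2B27, E8 and mTeSR (edgeR adjusted p = 1.165e-06, 3.31e-06 and 7.474e-07). COX7B (chrX:77899440-77907376) was at 100.7 to 203.1 CPM in naive libraries (median 146.0) and changed by -0.69, -0.62 and -0.88 on the log2 scale (adjusted p = 0.003757, 0.007984 and 0.0004872, edgeR). The N2B27 and E8 calls of COX7B were each lost without replicate 2 of that day (0.0666 and 0.142).

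**Figure D4:**
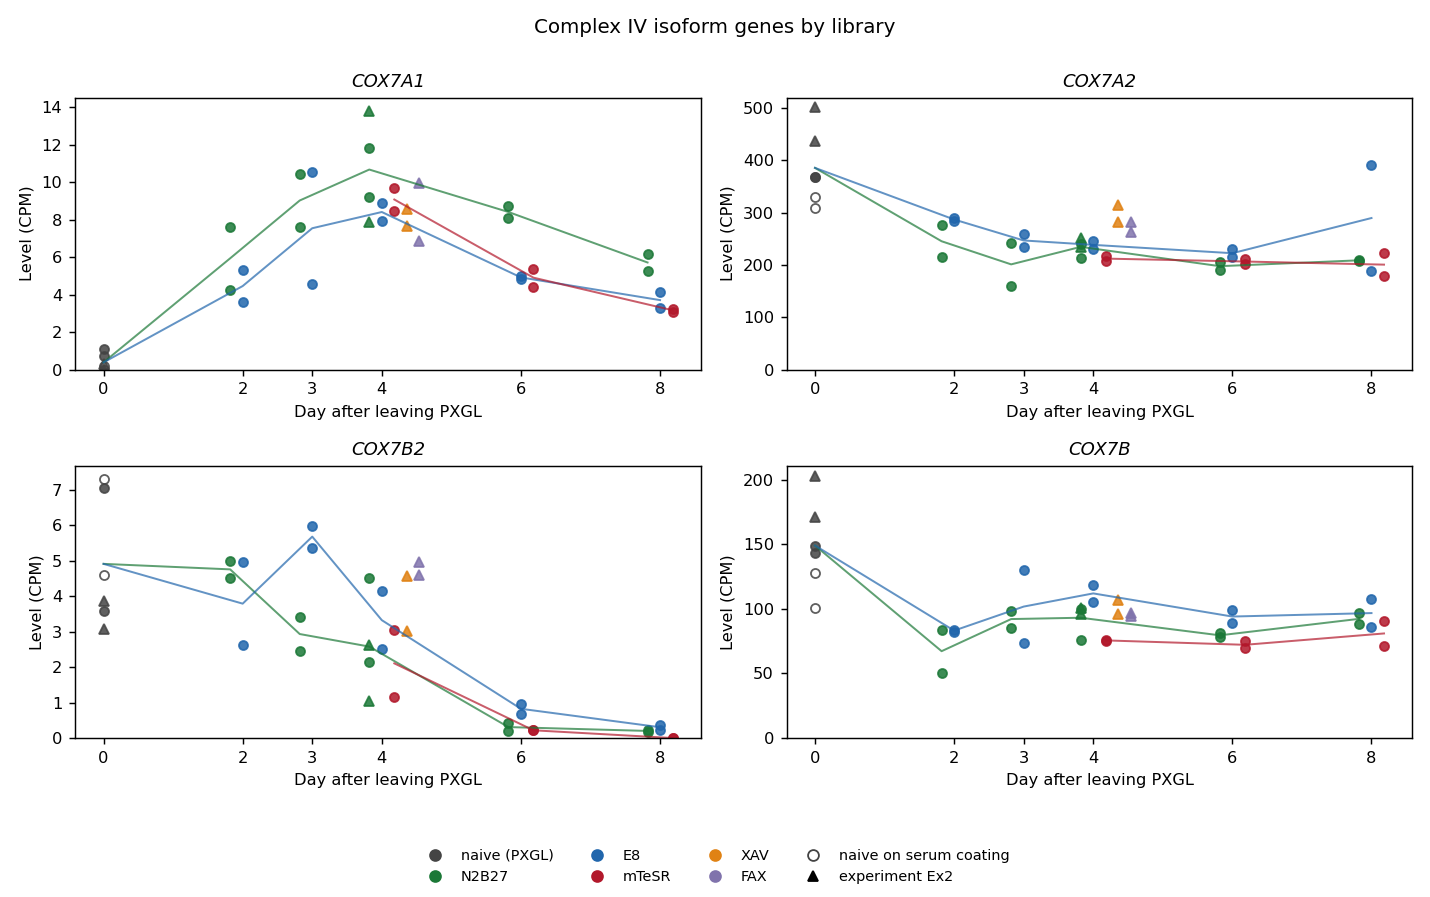
Levels in CPM (linear axes from 0, each panel on its own scale) of COX7A1 and COX7B2 and of their abundant counterparts COX7A2 and COX7B in each library, against day after leaving PXGL, with lines through group means. COX7A1 rises from at most 1.12 CPM in naive cells, and COX7B2 declines to at most 0.375 CPM by day 8.

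The remaining restricted isoforms carried few counts. COX6B2, a testis-type isoform, gave 128 counts in naive cells, most of them from the 2 Ex2 libraries (11.6 and 13.3 CPM, against 1.80 to 3.28 CPM in the other 4), and 17, 6 and 7 counts at day 8 in N2B27, E8 and mTeSR. Its day 8 values lay below the Ex1 naive values (1.80 to 3.28 CPM), at 1.76 and 1.63 CPM in N2B27, 0.375 and 0.942 in E8, and 0.272 and 1.68 in mTeSR. COX8C gave 1 count in naive cells and 3, 11 and 5 at day 8. COX6A2 gave 1 count in naive cells and 0 at day 8, and COX4I2 had 0 counts in the whole table. All 6 of the general counterparts were called lower at day 8 in N2B27 (20.4% of all genes), 4 in E8 (23.1%) and 6 in mTeSR (20.7%). Their medians were -0.79, -0.56 and -0.71.

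At day 2 the mitochondrially encoded genes that passed the test were all higher. In E8, 6 of 13 were called higher (24.2% of all genes were) and 0 lower (23%), with a median of 0.25. MT-CO1 and MT-CO3, core subunits of complex IV, rose by 0.60 and 0.67 on the log2 scale (edgeR adjusted p = 0.0001091 and 2.084e-05). MT-CO1 was at 1347 and 1430 CPM against 769.8 to 1113 in naive libraries (median 885.4), and MT-CO3 at 3794 and 3873 against 2114 to 3006 (median 2317). Both stood above all naive libraries. MT-CO2 (chrM:7586-8269), the subunit that accepts electrons from cytochrome c, was at 1959 and 2024 CPM against 854.9 to 1704 (median 1142) and rose by 0.71 (adjusted p = 0.0002486, edgeR). MT-ND1, with the uncertainty of its nuclear copy, was at 1858 and 2169 CPM against 958.6 to 1217 (median 1125) and rose by 0.87 (2.001e-06). MT-ND2 rose by 0.67 (0.0001117) and counts listed under MT-ATP8, a small subunit of ATP synthase, by 0.93 (0.0004029). MT-ATP6, on the same messenger as MT-ATP8, was not called. The count stayed at 6 or 7 whichever library was left out.

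In N2B27 at day 2, 7 were called higher and 0 lower (18.9% and 16.4% of all genes), with a median of 0.40, but the count was 4 without replicate 1 and 3 without replicate 2. MT-ND5, a proton-pumping subunit of complex I, was called whichever library was left out (log2 0.54, edgeR adjusted p = 0.004008). The other 6, MT-ND1, MT-ND2, MT-CO1, MT-CO2, MT-CO3 and MT-ATP8, changed by 0.53, 0.53, 0.35, 0.54, 0.40 and 0.85 on the log2 scale, and each lost its call without 1 of the 2 libraries, MT-CO3 without either. MT-ATP6, on the same messenger as MT-ATP8, was not called at day 2 in N2B27. The mitochondrial ribosomal RNAs MT-RNR1 and MT-RNR2, which are no members of the set, changed by 0.80 and 0.68 at day 2 in E8 and by 0.54 and 0.43 in N2B27, each called higher. At day 8 both were called lower in E8 (-0.88 and -0.42) and in mTeSR (-0.86 and -0.39), and in N2B27 they changed by -0.22 and -0.18 without a call. Over days 4 to 8, E8 minus N2B27 gave -0.27 for MT-RNR1 (edgeR adjusted p = 0.02564) and -0.075 for MT-RNR2 (0.4605).

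After day 2 fewer mitochondrially encoded genes were called higher. In N2B27, 2, 2, 5 and 3 of 13 were lower at days 3, 4, 6 and 8 (15.3%, 20%, 19.9% and 20.4% of all genes) and 0 were higher. These small counts moved with single libraries, to 3 or 0 at day 6 without replicate 1 or 2, to 0 at day 8 without replicate 2, and to 1 at day 3 without either day 3 library, either naive Ex2 library or naive serum replicate 1. The 3 at day 8 were MT-ATP6, MT-ND3 and MT-ND4L, the last without a call of MT-ND4 on the same messenger. From day 2 to day 3 in N2B27, 8 of the 13 fell (4.38% of all genes were lower), with a median of -0.42, and 5, 0 and 1 did without day 2 replicate 1, day 2 replicate 2 and day 3 replicate 2.

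In E8, 2, 4, 2 and 0 were higher at days 3, 4, 6 and 8 (19.5%, 21.4%, 23.1% and 26.8% of all genes). The day 4 count was 1 without E8 replicate 1 and 7 without naive serum replicate 1. The day 3 count ranged from 0, without E8 day 3 replicate 1, to 5, without naive serum replicate 1, with 1 when either naive Geltrex Ex1 library or Ex2 replicate 2 was left out. The day 6 count ranged from 0, without E8 day 6 replicate 1, to 5, without naive serum replicate 1, with 1 when E8 day 6 replicate 2, naive Geltrex Ex1 replicate 1 or either naive Ex2 library was left out. At day 8 MT-CO2 was called higher without E8 day 8 replicate 2 (log2 0.549, edgeR adjusted p = 0.0183) or naive serum replicate 1 (0.441, 0.00601). The genes called lower in E8 were 0 at days 3 and 4, 1 at day 6 and 1 at day 8 (15.8%, 19.1%, 19.2% and 23.1% of all genes). The day 6 call was lost without either E8 day 6 library, naive Geltrex Ex1 replicate 2 or either naive serum library. The day 8 gene was MT-ND4L (chrM:10470-10766), a membrane subunit of complex I, at 220.1 and 189.5 CPM against 308.8 to 426.1 in naive libraries (median 380.1), below all of them. Counts listed under MT-ND4L fell by 0.88 on the log2 scale (edgeR adjusted p = 5.182e-07). They are not levels of a separate transcript, and MT-ND4, on the same messenger, was not called. A second gene was called without E8 day 8 replicate 1 or without either naive Ex2 library. The median of the 13 genes was -0.08.

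In mTeSR, 2 were higher at day 4 (20.3% of all genes), 5 without naive serum replicate 1 and 0 without mTeSR day 4 replicate 1. At day 6, 6 were lower (18.8%), 1 without replicate 1 and 2 without replicate 2. At day 8, 10 were lower (20.7%) with a median of -0.44, and 2 without replicate 2. The calls of MT-ATP6 and MT-ND4L did not depend on any single library. MT-ATP6 (chrM:8527-9207), the proton channel subunit of ATP synthase, was at 1344 and 966 CPM against 1721 to 2199 in naive libraries (median 2062) and fell by 0.80 (SE 0.131, edgeR adjusted p = 4.836e-06). Counts listed under MT-ND4L, which are not levels of a separate transcript, were at 196.8 and 178.3 CPM and fell by 1.01 (SE 0.129, 6.24e-08). Both genes lay below every naive library.

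From day 4 to day 6 in mTeSR, 8 of 13 were lower (3.45% of all genes), with a median of -0.51, and 2, 4 and 1 were without day 4 replicate 1, day 6 replicate 1 and day 6 replicate 2. MT-ND6 was the largest of these changes, from 171.1 and 125.7 CPM to 56.6 and 43.1 CPM. From day 4 to day 8 the change in mTeSR minus that in N2B27 was negative for all 13 genes, with a median of -0.57. It was called for 2 of them (2.4% of all genes, either direction). MT-ATP6 gave -0.80 (SE 0.183, edgeR adjusted p = 0.009496) and MT-CO2 -0.73 (SE 0.199, 0.04081). The count was 5 without mTeSR day 8 replicate 1, 1 without N2B27 day 4 replicate 1, N2B27 day 8 replicate 2 or mTeSR day 4 replicate 1, and 0 without N2B27 day 4 replicate 2, N2B27 day 8 replicate 1 or mTeSR day 8 replicate 2. The same interaction for E8 was called for 0 of the nuclear and mitochondrially encoded genes (2.27% of all genes), where 8 nuclear and 3 mitochondrially encoded genes had an unadjusted p under 0.05 in edgeR. DESeq2 was not run for that interaction.

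Media were compared directly as averages over days 4, 6 and 8 of Ex1, 6 libraries a medium. The mitochondrially encoded genes were higher in E8 than in N2B27, with 9 of 13 called (17.5% of all genes) and 0 lower (17.8%), and 7 to 9 whichever library was left out. The median difference was 0.28 on the log2 scale, against 0.00 over all genes. MT-ATP6 led. It was 1798, 1596, 1570, 1465, 1581 and 1313 CPM in N2B27 at days 4, 4, 6, 6, 8 and 8, and 2747, 2663, 2760, 2625, 2556 and 2035 in E8. Every E8 library stood above every N2B27 library of Ex1. The difference in MT-ATP6 was 0.72 (SE 0.075, edgeR adjusted p = 5.452e-09).
Next came MT-ND6 at 0.64 (0.0003561), MT-ND1 at 0.47 (5.86e-05), MT-CO2 at 0.45 (5.595e-05), MT-CYB, the mitochondrially encoded subunit of complex III, at 0.43 (7.754e-05), MT-CO3 at 0.40 (2.285e-05) and MT-ND3 at 0.28 (1.545e-05), each p being edgeR's adjusted p. These 7 were called whichever library was left out.

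mTeSR was lower than E8 for 10 of the 13 (8.03% of all genes), with a median of -0.27, and for 5 without E8 day 8 replicate 1 or without mTeSR day 8 replicate 2. MT-ATP6 gave -0.64 (edgeR adjusted p = 1.666e-07), MT-CO2 -0.42 (0.0004422), MT-CO3 -0.34 (0.0004907), MT-CYB -0.31 (0.006466) and MT-ND3 -0.19 (0.004292). These 5 were called in all the fits that left out a library. Between mTeSR and N2B27, MT-ND4L alone was called, at -0.37 (edgeR adjusted p = 0.0009005), where 11.7% of all genes were lower and 12% higher. MT-ND4, on the same messenger, was not called. A second gene was called without N2B27 day 8 replicate 1, mTeSR day 4 replicate 2 or mTeSR day 6 replicate 2. This average covers days at which the difference had opposite signs. For MT-ATP6, mTeSR minus N2B27 was 0.48 at day 4 (edgeR adjusted p = 0.02596), 0.083 at day 6 (0.763) and -0.33 at day 8 (0.1083). A missed threshold does not show that the other 12 genes had equal levels in mTeSR and N2B27.

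**Figure D5:**
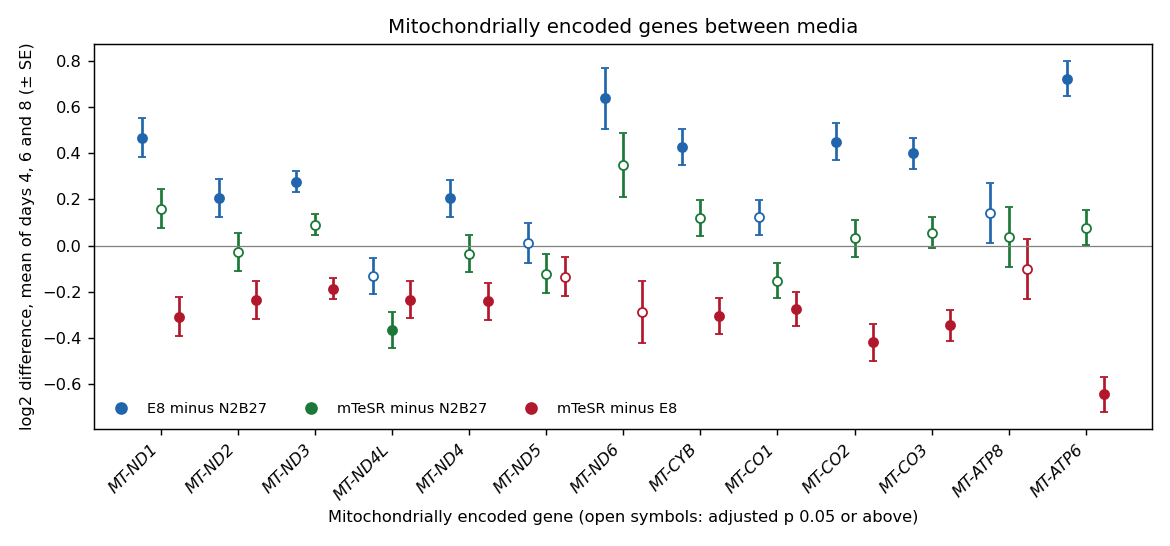
Log2 difference between media (mean of days 4, 6 and 8, ± SE) for each of the 13 mitochondrially encoded genes, filled where called. E8 minus N2B27 is positive for 12 genes and largest for MT-ATP6 at 0.72, and mTeSR minus E8 is negative for all 13, down to -0.64 for MT-ATP6.

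Nuclear genes also differed between media. E8 exceeded N2B27 for 23 of 64 (17.5% of all genes) and was lower for 5 (17.8%), with a median of 0.16, and for 15 without E8 day 8 replicate 1. COX7C (chr5:86617928-86620962), a small membrane subunit of complex IV, was 493.7 and 460.3 CPM in N2B27, 1033 and 733.2 in E8 and 694.7 and 638.0 in mTeSR at day 8, with no overlap among the 3 pairs. Over days 4 to 8 it was 0.60 higher in E8 than in N2B27 (edgeR adjusted p = 4.057e-07) and 0.30 higher in mTeSR than in N2B27 (0.005121). Against naive cells COX7C was called higher at day 8 in E8 (log2 0.605, edgeR adjusted p = 0.001487), a call lost without E8 day 8 replicate 1 (0.337, 0.196). Its processed copy COX7CP1 took 1.86% of the joint counts. UQCRH was 0.39 higher in E8 than in N2B27 (adjusted p = 9.94e-07, edgeR) and 0.29 higher in mTeSR than in N2B27 (0.0001468). NDUFA4 was 0.43 higher in E8 than in N2B27 (0.002472, edgeR adjusted p) and 0.44 lower in mTeSR than in E8, with a log2 difference of -0.44 (0.005505). In complex I, E8 minus N2B27 was 0.67 for NDUFB3 (edgeR adjusted p = 0.000545) and -0.44 for NDUFA7 (0.0006926).

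mTeSR was lower than E8 for 15 nuclear genes (8.03% of all genes) and higher for 0 (8.61%). The 15 became 3 without E8 day 8 replicate 1, 24 without E8 day 8 replicate 2 and 7 without mTeSR day 8 replicate 2. Between mTeSR and N2B27, 5 nuclear genes were higher (12% of all genes) and 6 lower (11.7%), 11 in all and 7 without mTeSR day 8 replicate 1, and the median was -0.01. Among the 6, NDUFA12 was lower in mTeSR by a log2 difference of -0.47 (SE 0.128, edgeR adjusted p = 0.007196).

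Ex2 gave a repeat of N2B27 at day 4 with its own naive libraries on Geltrex. Within Ex1, 34 nuclear genes were lower at day 4 (14.4% of all genes) with a median of -0.45, and 19 without N2B27 day 4 replicate 2. Within Ex2, 44 were lower (19.4%) with a median of -0.58. Of the mitochondrially encoded genes, 0 were called lower within Ex1 and 1 within Ex2. Adding XAV939 to N2B27 gave 19 lower nuclear genes against the naive libraries (15.4% of all genes) and 2 higher (18%), with 8 and 11 lower without XAV replicate 1 and 2. FAX gave 30 lower (15.9%) and 2 higher (18.1%), with 12 and 16 lower without FAX replicate 1 and 2. In XAV 2 mitochondrially encoded genes were lower and in FAX 1. The lower nuclear count was 10 for XAV and 14 for FAX when only the compared libraries were fitted, and 33 for XAV against the naive libraries of Ex2 alone. The mitochondrially encoded XAV count was 0 without XAV replicate 2 and 1 without XAV replicate 1, naive Geltrex Ex1 replicate 2 or naive serum replicate 1, and the FAX count was 0 without either FAX library.

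Set directly against N2B27 at day 4 of Ex2, XAV (1.34% of all genes called) and FAX (0.846%) each had 0 nuclear or mitochondrially encoded genes called by edgeR. At an unadjusted p under 0.05 edgeR had 8 and 3, and DESeq2 called 0 and 0. With only the compared libraries fitted edgeR called 17 and 5, and with no filter on low counts 3 and 1. Geltrex against serum coating in naive cells likewise had 0 (0.174% of all genes), with 31 at an unadjusted p under 0.05, 6 called by DESeq2, and 9 called by edgeR without naive serum replicate 2. All 13 mitochondrially encoded genes were at lower values on Geltrex (median -0.37), and the nuclear median was 0.18. Between the naive Geltrex libraries of Ex2 and Ex1, 15.2% of all genes were called, among them 8 nuclear genes higher and 1 lower in Ex2, and MT-ND6, which was lower by 1.21 with values of 50.5 and 31.3 CPM against 73.4 and 113.1. Experiment, culture and library preparation cannot be told apart there.

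Related mitochondrial lists were counted at day 8 in N2B27, E8 and mTeSR, beside the shares of all genes given above. Of 18 nuclear ATP synthase genes, 12, 12 and 13 were lower and 0 higher, with medians of -0.51, -0.44 and -0.52. ATP5MC1, a gene for the rotor ring, fell by 1.25, 1.40 and 1.46 (edgeR adjusted p = 1.261e-08, 1.419e-09 and 9.885e-10). Of 13 tricarboxylic acid cycle genes, 10, 9 and 9 were lower and 2, 1 and 2 higher, with medians of -0.79, -0.63 and -0.58.
Cytochrome c1 (CYC1), a subunit of complex III outside the symbol rule, the electron carrier cytochrome c (CYCS) and the acyl carrier NDUFAB1 were all called lower in N2B27 and in mTeSR and NDUFAB1 alone in E8. NDUFAB1, a subunit of complex I and of mitochondrial fatty acid synthesis, fell by 1.28, 0.95 and 1.06 on the log2 scale (adjusted p = 1.893e-10, 5.792e-08 and 9.892e-09, edgeR).

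Assembly factors were mixed. Of 16 for complex I, 6, 5 and 6 were lower and 3, 3 and 1 higher. NDUFAF2, which helps attach the NADH-oxidising arm, rose by 0.56, 1.19 and 0.95 (edgeR adjusted p = 0.01218, 7.513e-07 and 5.66e-05). Of 23 for complex IV, 10, 9 and 8 were lower and 1, 2 and 1 higher, and SCO2, a copper chaperone, changed by -0.89 in N2B27 and by -1.27 in mTeSR (adjusted p = 0.0006683 and 2.346e-05, edgeR). Of 4 factors for complex II, 2, 1 and 0 were lower, with 0 higher, and of 6 for complex III, 3, 3 and 3 were lower and 1, 0 and 1 higher.

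Among 13 genes of mitochondrial DNA replication and transcription, 6, 2 and 5 were lower at day 8 and 1, 0 and 0 higher. TFAM, which packages mitochondrial DNA and starts its transcription, changed by -0.28, -0.17 and -0.30 and was not called (edgeR adjusted p = 0.07825, 0.2765 and 0.06137). In the direct comparison of E8 with N2B27, 5 of these 13 were higher (17.5% of all genes) and 0 lower (17.8%), among them TFAM at 0.26 (adjusted p = 0.003197, edgeR) and the transcription factor TFB2M at 0.95 (0.0004294). Of 11 tested regulators of mitochondrial biogenesis, 4, 4 and 5 were lower at day 8 against naive cells and 1, 0 and 1 higher. The gene that rose was ESRRB, an orphan nuclear receptor of the same family as ESRRA, at few counts. It had 0 counts in 4 naive libraries and at most 4 in the others, against 6 and 5 at day 8 in N2B27 and 10 and 9 in mTeSR (edgeR adjusted p = 0.03901 and 0.0006117). ESRRA, an orphan nuclear receptor that activates oxidative genes, fell by 1.53, 1.43 and 1.11 (edgeR adjusted p = 1.343e-08, 4.012e-08 and 3.935e-06), and its coactivator PPARGC1B changed by -1.27, -1.07 and -1.28 (1.394e-07, 2.046e-06 and 2.532e-07).
PPARGC1A, the related coactivator, was low, at 2.66 to 5.77 CPM in naive libraries (median 3.71), and was at 0.800 and 0.712 CPM at day 2 in N2B27 and 0.354 and 1.31 in E8, below the naive range. It fell by 2.41 and 2.26 on the log2 scale at day 2 (edgeR adjusted p = 0.0001469 and 0.0006902) and was not called at day 8 (0.3608 in N2B27, 0.17 in E8 and 0.05986 in mTeSR).

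Markers of other cell types moved with the same comparisons. Of 5 primitive endoderm markers, 5 were higher at day 8 in each of N2B27, E8 and mTeSR, with summed levels of 0.683 to 4.21 CPM in naive cells and 152.1 to 170.7, 18.1 to 22.7 and 82.3 to 85.2 CPM. The 6 tested trophectoderm and amnion markers gave 5 rises in N2B27, 3 rises and 2 falls in E8, and 2 rises and 1 fall in mTeSR, with sums of 8.02 to 16.2 CPM in naive cells (HAND1 and GABRP at 0) and 77.1 to 95.2 (VTCN1 at 0), 17.6 to 22.4, and 14.3 to 20.1 CPM (KRT7 at 0). Of the 4 tested fibroblast markers 3 were higher in each, with sums of 1.97 to 4.44 CPM in naive cells (POSTN at 0) and 162.2 to 172.3 (DCN at 0), 101.5 to 102.7 (COL3A1 at 0) and 133.8 to 150.2 CPM (DCN and LUM at 0). For E8 minus N2B27 over days 4 to 8, 4 of 5 primitive endoderm and 4 of 6 trophectoderm and amnion markers were lower (17.8% of all genes). In each of these lists 0 were higher (17.5%), and of 4 fibroblast markers 2 were higher and 1 lower. The part of such cells in the levels of the respiratory chain genes was not tested. The 3 general pluripotency markers summed to 1372 to 1822 CPM in naive libraries and 1286 to 1864 CPM at day 8.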

How the data were processed

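RNA was measured by QuantSeq 3′ tag sequencing in 38 libraries of the Shef6 line. The deposited table holds raw whole-number counts per gene symbol that the authors made, per the study's methods and processing notes, with the nf-core rnaseq workflow (FastQC 0.11.9, STAR 2.7.10a, Salmon 1.9.0, tximport, genome hg38). It carries no coordinates, so genes were placed on GRCh38 through their symbols in GENCODE release 44.

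Counts were analysed with edgeR 4.0.16 in R 4.3.3: genes kept by filterByExpr (16674, with 99.65% of counts), TMM scaling, and quasi-likelihood tests with Benjamini-Hochberg adjustment over all tested genes. A fit with 16 levels gave the 15 comparisons with naive cells, and a fit with 19 groups the others. Totals of 3038046 to 5612354 counts set the precision, and SE was derived from the F statistic. Genes were named per complex and comparison by size of change among calls without overlap between groups and a level of at least 20 CPM, plus fixed isoforms and all mitochondrially encoded genes. Genes named beyond this rule (NDUFC2, NDUFV1, SDHA, COX6A1 and those of related lists) were chosen after their values were seen. Members and lists were chosen with earlier results of these data known. Promoters came from RefSeq tables on GRCh38.p14. Scripts were tested on simulated counts. Alternatives included DESeq2 1.42.0, other scalings and filters, other naive libraries, a replicate block and leaving out each library. Replicate numbers did not pair the samples: over 171 pairs of groups the median correlation of same-numbered deviations was 0.001 (-0.54 to 0.45), with 28 pairs over 0.1. The mitochondrially encoded sum was nevertheless higher in replicate 1 in 15 of 19 groups.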

Additional observations from a re-analysis of the deposited data

Results flagged for a closer look

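Of 110 values checked, in the 6 naive libraries or the 4 of N2B27 at day 4, 3 had a library far from the others. Chance flags about 1 group in 20. All were in N2B27 at day 4, where 4 libraries came from 2 experiments. The ratio of mitochondrially encoded to nuclear sums was 1.946 in Ex2 replicate 1 and 1.58 to 1.641 in the others. MT-ND4 was at 2649 CPM in the same library and 2115 to 2164 CPM in the others. NDUFV1 was at 68.98 CPM in Ex1 replicate 1 and 81.03 to 82.06 CPM in the others.

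The change from day 4 to day 8 differed between mTeSR and N2B27 for a pair of mitochondrially encoded genes by a test of that difference. It was -0.802 (SE 0.183, edgeR adjusted p = 0.009496) for MT-ATP6 and -0.727 (SE 0.199, adjusted p = 0.04081, edgeR) for MT-CO2. MT-ATP6 had 1798 and 1596 CPM at day 4 and 1581 and 1313 CPM at day 8 in N2B27, and 2307 and 2418 and then 1344 and 966 CPM in mTeSR. MT-CO2 had 1298 and 1317 and then 1229 and 1114 CPM in N2B27, and 1896 and 1438 and then 1028 and 777.1 CPM in mTeSR. Depth was not tested as a cause.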

How the results depend on the processing

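No gene value called in the main fit changed sign under the alternatives run on it. Sign changes of uncalled values were not counted. The alternatives covered 377 gene results in most cases, 370 with only the compared libraries fitted and 182 for each other choice of naive libraries. DESeq2 kept 363 of 377 on their side of the threshold. Counts that moved by more than 1.5 times follow, and the cause was not tested.

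With plain library totals, E8 exceeded N2B27 for 15 nuclear genes. With no filter, lower mitochondrially encoded genes numbered 5 (N2B27 day 8) and 4 (E8 day 8), 2 were called in mTeSR against N2B27, members called were 3 for XAV, 1 for FAX and 18 for coating, and the interaction called 10. DESeq2 called 6 for coating and 4 for the interaction. With only the compared libraries fitted, N2B27 day 2 gave 22 lower nuclear and 3 higher mitochondrially encoded genes, mTeSR day 8 gave 4 lower mitochondrially encoded genes, mTeSR against N2B27 called 18 nuclear and 4 mitochondrially encoded genes, XAV 17, FAX 5 and the interaction 7, and N2B27 day 3 against day 2 gave 0.

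The replicate block, although numbers did not pair the samples, gave 2 mitochondrially encoded genes in mTeSR against N2B27, 2 for coating and 4 for the interaction. Adding processed copies to their parent genes gave 2 in mTeSR against N2B27. Naive libraries of the same experiment gave 3 lower at E8 day 8, and those on Geltrex gave 5 lower at mTeSR day 8 and 10 higher at E8 day 2.

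With a log2 change above 1 required, lower nuclear genes numbered 5, 2 and 7 in N2B27 at days 2, 4 and 8, 5 and 4 in E8 at days 2 and 8, 12 in mTeSR at day 8, and 0 and 5 within Ex1 and Ex2 at day 4. Mitochondrially encoded genes numbered 0 higher at day 2 in N2B27 and in E8, and 0, 0 and 1 lower at day 8 in N2B27, E8 and mTeSR. Between media, 1 nuclear and 0 mitochondrially encoded genes remained for E8 against N2B27, 1 and 0 for mTeSR against E8, and 0 and 0 for mTeSR against N2B27. The interaction and N2B27 day 3 against day 2 gave 0, and mTeSR day 6 against day 4 gave 1.

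At the other days and in XAV and FAX, counts against naive cells also moved. With only the compared libraries fitted, lower nuclear genes were 22 (N2B27 day 3), 11 (E8 day 3), 10 (XAV) and 14 (FAX). With naive libraries of the same experiment they were 16 (E8 day 3) and 33 (XAV), and with those on Geltrex 31 (XAV). With a log2 change above 1 required they were 1 to 10 at the other days and 2 in XAV and in FAX. Over the other settings except that one, lower mitochondrially encoded genes ranged over 1 to 2 at N2B27 days 3 and 4, 1 to 8 at N2B27 day 6, 2 to 7 at mTeSR day 6, 0 to 1 at E8 day 6 and in FAX, and 0 to 2 in XAV. Higher ones ranged over 0 to 6, 4 to 9 and 1 to 5 at E8 days 3, 4 and 6, 0 to 5 at mTeSR day 4, 0 to 1, 0 to 3 and 0 to 1 at N2B27 days 3, 4 and 6, 0 to 2 in XAV and 0 to 3 in FAX. Without naive serum replicate 1, 1 was higher at N2B27 days 3 and 4, in XAV and in FAX, and without naive serum replicate 2, 1 was at N2B27 day 3 and in XAV.

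Leaving out each library gave these ranges, where a lone library is assumed to vary like the other groups. Lower nuclear genes were 14 to 39, 37 to 43 and 38 to 58 in N2B27 at days 2, 4 and 8, 16 to 29 and 19 to 41 in E8 at days 2 and 8, 35 to 48 in mTeSR at day 8, and 19 to 25 and 35 to 39 within Ex1 and Ex2. Higher mitochondrially encoded genes at day 2 were 3 to 7 in N2B27 and 6 to 7 in E8, and lower ones at day 8 were 0 to 4, 1 to 2 and 2 to 12 in N2B27, E8 and mTeSR. E8 against N2B27 gave 15 to 23 nuclear and 7 to 9 mitochondrially encoded genes, mTeSR against E8 3 to 24 and 5 to 10, and mTeSR against N2B27 7 to 10 and 1 to 2. XAV and FAX gave 0, coating 0 to 9, the interaction 0 to 5, N2B27 day 3 against day 2 0 to 7, and mTeSR day 6 against day 4 1 to 8. Depth limits the rare isoforms, since 3 counts are 0.520 to 1.06 CPM.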
